A study of Mus musculus with 24 samples.

Results

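The dopamine receptor genes Drd1, Drd2, Drd3, Drd4 and Drd5 were taken from RNA-seq of the striatum of R6/1 mice, a model of Huntington's disease, and of their wild type (WT) littermates. They were found by their symbols, and all 5 were among the 24340 genes listed in each of the 6 deposited comparison tables. The study asked whether RGFP109, an inhibitor of the histone deacetylases HDAC1 and HDAC3, changes behavior, gene expression and brain volume in these mice. Striatal RNA came from 24 male mice, namely 5 that were WT-vehicle, 6 R6/1-vehicle, 6 WT-RGFP109 and 7 R6/1-RGFP109, with 1 library each.

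R6/1 mice were hemizygous for a transgene that carries exon 1 of human HTT with an expanded CAG repeat, on a C57BL/6J background, and the WT mice lacked it. The RGFP109 groups were injected intraperitoneally with 30 mg/kg on 5 days a week over 3 weeks, and the vehicle groups received the same volume of the solvent, dimethyl sulfoxide in saline. Injections began when the animals of all 4 groups were 11 to 14 weeks old, and the tissue was taken 18 h after the last one, at 14 to 17 weeks. The transgene encodes a fragment of human huntingtin beside an intact mouse gene, which limits the line as a model of the human disease. The tables hold 1 pooled value per group and comparison and none per mouse, so the spread between mice was not available, no difference was tested, and every value given here is a description. The unit is FPKM, the number of fragments scaled by transcript length and by the total of mapped fragments, which can therefore be set side by side between genes.

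Dopamine receptors are G protein-coupled receptors. The D1-like receptors, encoded by Drd1 and Drd5, couple to stimulatory G proteins and raise cyclic AMP, and the D2-like receptors, encoded by Drd2, Drd3 and Drd4, couple to inhibitory G proteins and lower it. In the striatum Drd1 and Drd2 mark the projection neurons of the direct and the indirect pathway, Drd2 and Drd5 are also found in cholinergic interneurons, and Drd3 is known mainly from the ventral striatum and the islands of Calleja. The loss of striatal Drd1 and Drd2 transcripts is a long known feature of Huntington's disease models.

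On mm10, Drd1 lies on the minus strand of chromosome 13 from 54051183 to 54055658 and has 2 annotated exons, 1 of which holds its whole coding sequence. Drd5, the other D1-like gene, lies on chromosome 5 from 38319509 to 38322523 and has 1 exon. Of the D2-like genes, Drd2 spans 49340662 to 49407214 of chromosome 9 with 8 exons, Drd3 spans 43762242 to 43822839 of chromosome 16 with 8 exons, and Drd4 spans 141292006 to 141295001 of chromosome 7 with 4 exons. The 5 genes thus lie on 5 chromosomes. The antisense gene Gm26560 overlaps Drd5, and whether reads were counted by strand is not given in the sources used here, so reads of these 2 genes cannot be told apart where they overlap. The annotated gene Gm25996 overlaps the span of Drd3, and its part in the Drd3 value was not tested. Drd2 is transcribed into a long and a short splice form, which the tables, with 1 value per gene, do not separate.

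The stretches before the start sites of Drd1, Drd2, Drd5 and Drd3 are printed here because the first 3 genes had lower FPKM in R6/1 mice in both genotype comparisons, whereas Drd3 did not. Drd4, which was lower in both as well, is not printed, since the last 12 bases of its stretch lie within the gene as the tables give it, and is described by its counts. Each line gives the 250 bases before the start site annotated by RefSeq on GRCm38.p6, 5′ to 3′ along the gene's strand, with CG dinucleotides in capitals. Relative to the start of the quantified gene, this site lies at 0 for Drd1 and Drd5, at -259 bases for Drd2 and at -21 for Drd3. The printed stretches of Drd2 and Drd3 thus end short of the quantified gene. The Drd1 stretch is chr13:54055659-54055908 (minus strand), that of Drd2 is chr9:49340153-49340402, that of Drd5 is chr5:38319259-38319508 and that of Drd3 is chr16:43761971-43762220 (all plus strand).
Drd1: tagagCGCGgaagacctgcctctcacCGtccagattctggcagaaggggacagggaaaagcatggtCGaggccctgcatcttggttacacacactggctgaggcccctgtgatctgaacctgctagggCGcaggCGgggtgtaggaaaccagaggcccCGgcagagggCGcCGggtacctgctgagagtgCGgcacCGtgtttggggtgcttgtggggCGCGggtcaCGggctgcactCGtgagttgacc
Drd2: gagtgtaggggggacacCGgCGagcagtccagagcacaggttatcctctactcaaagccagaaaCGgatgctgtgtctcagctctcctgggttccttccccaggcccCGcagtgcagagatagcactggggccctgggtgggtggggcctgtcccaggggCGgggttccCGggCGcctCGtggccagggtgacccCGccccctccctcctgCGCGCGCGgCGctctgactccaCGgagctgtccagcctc
Drd5: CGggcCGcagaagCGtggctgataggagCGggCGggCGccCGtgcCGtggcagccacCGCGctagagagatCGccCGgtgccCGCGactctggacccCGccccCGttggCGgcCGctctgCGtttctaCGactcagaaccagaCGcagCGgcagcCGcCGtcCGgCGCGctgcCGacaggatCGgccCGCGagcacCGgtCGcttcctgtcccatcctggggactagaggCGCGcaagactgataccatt
Drd3: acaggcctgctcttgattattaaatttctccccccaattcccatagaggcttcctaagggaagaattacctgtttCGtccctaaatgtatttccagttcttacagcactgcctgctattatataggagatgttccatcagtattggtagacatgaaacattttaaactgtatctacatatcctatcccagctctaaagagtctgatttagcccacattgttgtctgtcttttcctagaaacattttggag
The Drd5 stretch held 35 CG dinucleotides and had a GC content of 71.2%, and fewer CG dinucleotides were found in 97% of the 32841 RefSeq promoters of that length. Drd1 and Drd2 held 15 each, with a GC content of 64.0% and 68.8%, and Drd4 held 12, with 56.8%. RefSeq gives Drd1 another start site inside the gene, and the stretch before that site, chr13:54054781-54055030, held 5 CG dinucleotides at a GC content of 60.8%. Drd3 stood apart with 1 CG dinucleotide and a GC content of 39.2%, and only 7.86% of promoters had fewer. The median promoter held 6 CG dinucleotides at a GC content of 52.4%. The motif GGGCGG, searched on both strands, occurred 2 times before Drd2, 2 times before Drd5, 3 times before Drd4 and 1 time before the inner start site of Drd1. It was not in the printed stretches of Drd1 and Drd3, against 32.7% of all promoters with at least 1 match. TGACG, the core of the cyclic AMP response element, was in none of the stretches of the 5 genes, against 17.8% of all promoters. These matches describe the letters only, and no binding or methylation was measured.

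In WT-vehicle striatum Drd2 was the most abundant receptor transcript, with 97.7 FPKM on a scale common to the tables, and 5.09% of the 16652 genes over 0.1 FPKM were higher. Drd1 followed with 57 FPKM. Drd5, with 1.71 FPKM, and Drd3, with 0.789 FPKM, were far lower, and Drd4 was at 0.23 FPKM, where 94.5% of genes over 0.1 FPKM were higher. Drd1 and Drd2 together thus made up nearly all of the receptor FPKM, with shares of 36.2% and 62.1%. In WT-vehicle the order was Drd2, Drd1, Drd5, Drd3, Drd4, whereas Drd3 was above Drd5 in the other 3 groups.

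**Figure D1:**
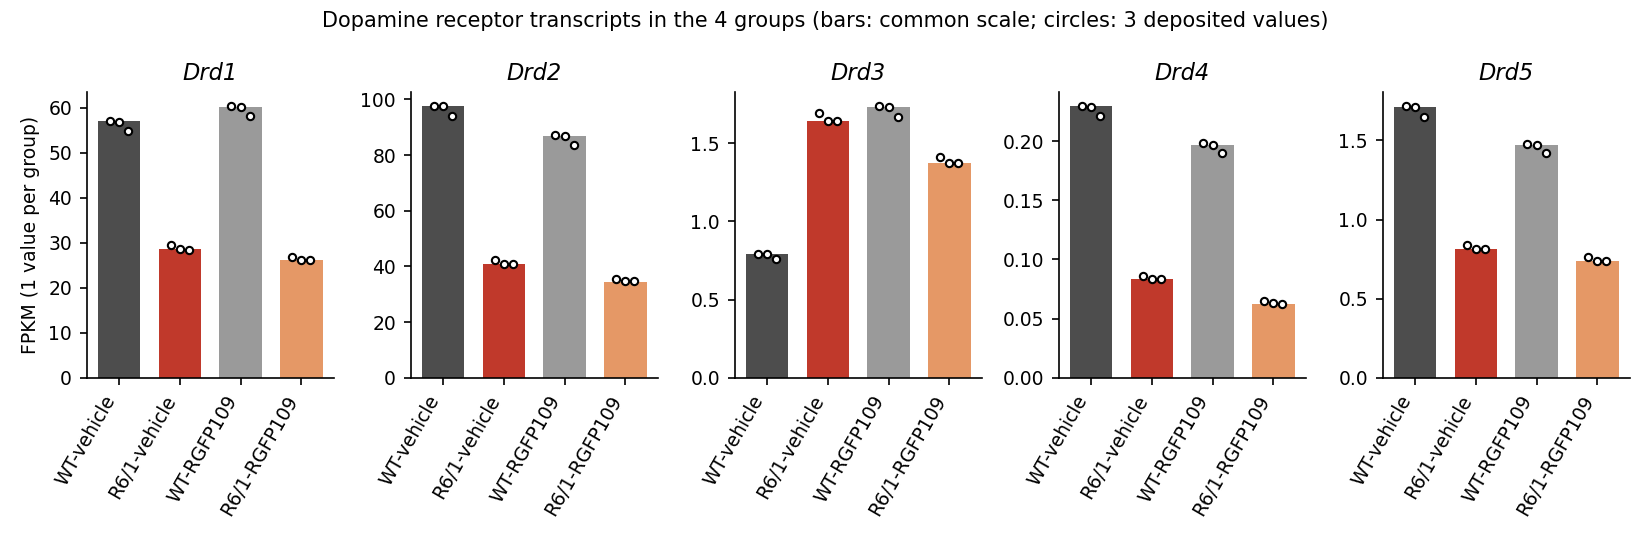
FPKM (y axis, linear, a separate scale for each gene) of the 5 receptor genes in the 4 groups. Bars give the level on the scale common to the 6 tables and circles the 3 deposited values of a group, which differ by table scaling and not by mouse; Drd1, Drd2, Drd4 and Drd5 are lower in both R6/1 groups than in both WT groups, and Drd3 is lowest in WT-vehicle.

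The first question was how the receptor genes differ between genotypes without the drug. In R6/1-vehicle against WT-vehicle, 4 of the 5 receptor genes were lower and 1, Drd3, was higher past an absolute log2 difference of 0.5. This fold was set by the study, which also required a q-value under 0.1, a cutoff not applied here. By its criteria, the paper names Drd1 and Drd2 among the downregulated genes of this comparison, and it also measured both by quantitative RT-PCR. Differences are log2 ratios of FPKM after adding 0.05 to each value. Over all 16972 genes with more than 0.1 FPKM in at least 1 of the 2 groups, 13.4% were lower and 5.84% higher past the same fold. The median of the 5 receptor genes was -1.03, against -0.02 for all genes. In bulk tissue, fewer cells of a type and less RNA per cell cannot be told apart.

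Drd2, the D2 receptor of indirect pathway neurons and an autoreceptor on dopamine terminals, was deposited at 97.6 FPKM in WT-vehicle and at 41 FPKM in R6/1-vehicle. Its log2 difference of -1.25 was the largest decrease among the receptor genes with 0.05 FPKM added, and 2.74% of all genes had a lower value. With nothing added, the scarce Drd4 was lower, at -1.46, and Drd2 stayed at -1.25. Drd1, the receptor of direct pathway neurons, had 56.9 FPKM in WT-vehicle and 28.5 FPKM in R6/1-vehicle, a log2 difference of -0.99. The R6/1-vehicle level was thus 0.42 of that in WT-vehicle for Drd2 and 0.501 for Drd1, and the ratio of Drd1 to Drd2 was 0.583 in WT-vehicle and 0.697 in R6/1-vehicle. The summed FPKM of the 5 genes was 157 in WT-vehicle and 72.1 in R6/1-vehicle.

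Among the scarce receptors, on the common scale, Drd5 had 1.71 FPKM in WT-vehicle and 0.812 FPKM in R6/1-vehicle, a log2 difference of -1.03 that became -0.58 with 1 FPKM added. Drd4, a D2-like receptor best known from cortex and retina, had 0.23 FPKM in WT-vehicle and 0.0832 FPKM in R6/1-vehicle, a log2 difference of -1.07. The Drd4 value rests on very little RNA, and of the 3086 genes whose higher value lay between 0.1 and 1 FPKM, 25% were lower past the fold. For the class of Drd5, from 1 to 10 FPKM, this share was 12.3%, and for that of Drd1 and Drd2, over 10 FPKM, it was 9.73%. Drd3 went the other way, with 0.789 FPKM in WT-vehicle and 1.64 FPKM in R6/1-vehicle. Its log2 difference was 1.01, and 1.7% of all genes had a higher value. Past an absolute log2 difference of 1, Drd2, Drd4 and Drd5 remained among 4.45% of genes that were lower, and Drd3 among 1.74% that were higher.

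The same question was put to mice that had received RGFP109, in a comparison that shares no mice with the first. In R6/1-RGFP109 against WT-RGFP109, Drd1, Drd2, Drd4 and Drd5 were again lower past the fold, where 11.7% of 16954 genes were lower and 5.39% higher, and the median of the 5 genes was -1.13 against 0.00 for all genes. Drd2 had 87.2 FPKM in WT-RGFP109 and 34.6 FPKM in R6/1-RGFP109, a log2 difference of -1.33. Drd1 had 60.5 FPKM and 26.2 FPKM in these groups, a log2 difference of -1.21. Both D1 and D2 receptor transcripts were thus at less than 0.5 of the WT level in the treated mice as well, with ratios of 0.433 and 0.397. For Drd4 and Drd5 the log2 differences were -1.13 and -0.96, so that Drd1, Drd2 and Drd4 were among the 3.7% of genes lower past a log2 difference of 1. Being lower past the fold in both genotype comparisons applied to 1289 of 16662 genes (7.74%), 4 of the receptor genes among them.

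Drd3 differed between the 2 genotype comparisons. In RGFP109 mice its values were 1.74 FPKM in WT and 1.37 FPKM in R6/1, a log2 difference of -0.33 that stayed within the fold. The sign of the genotype difference of Drd3 was therefore opposite in vehicle and in RGFP109 mice.

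**Figure D2:**
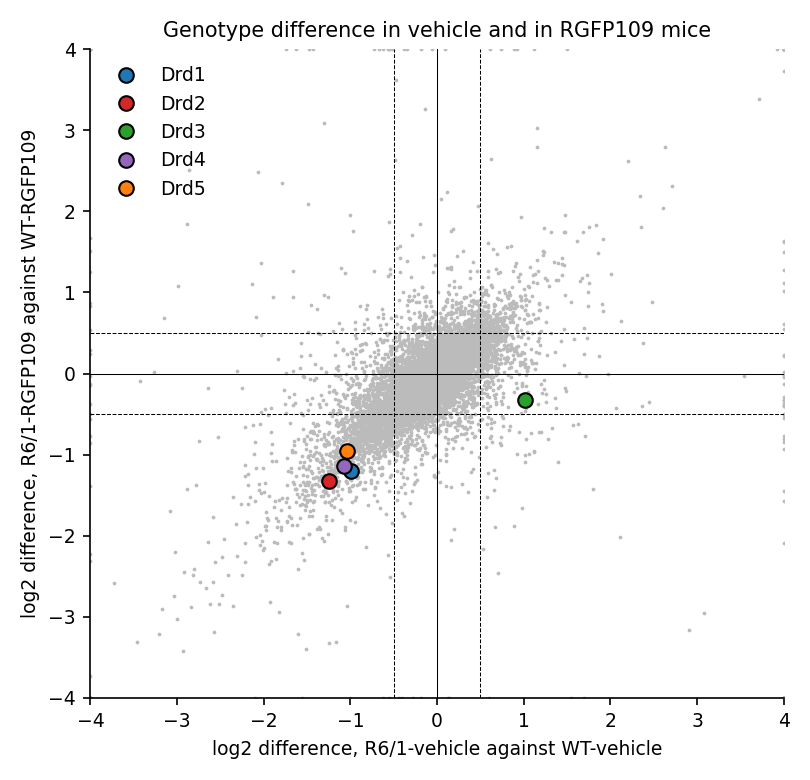
Log2 difference (FPKM + 0.05) between R6/1 and WT mice in the vehicle groups (x axis) and in the RGFP109 groups (y axis), for 16662 genes (gray) and the receptor genes (colored), with dashed lines at 0.5 and -0.5. Drd1, Drd2, Drd4 and Drd5 lie together at the lower left, Drd3 lies at the right below 0, and 160 genes beyond an axis limit of 4 are drawn at the edge.

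The effect of the drug was compared within each genotype. In R6/1 mice no receptor gene passed the fold in R6/1-RGFP109 against R6/1-vehicle, against 5.77% of 16840 genes past it in either direction. Drd2 had 42.3 FPKM with vehicle and 35.6 FPKM with RGFP109, a log2 difference of -0.25. Drd1 had 29.5 FPKM and 26.9 FPKM, a log2 difference of -0.13. For both genes the value in RGFP109-treated R6/1 mice was thus slightly farther from the WT-vehicle level than in R6/1-vehicle mice. R6/1-RGFP109 differed from WT-vehicle by -1.12 for Drd1 and by -1.50 for Drd2. Drd5, at -1.17, and the scarce Drd4, at -1.31, were also farther from WT-vehicle than in R6/1-vehicle mice, at -1.03 and -1.07. In R6/1-RGFP109 against WT-vehicle 4 receptor genes were lower, against 13.8% of all genes, and Drd3 was higher by 0.76, against 5.42%. In R6/1-vehicle against WT-RGFP109, which likewise shares its mice with the others, the same 4 genes were lower past the fold, against 11.4% of all genes. There Drd1 and Drd2, both at -1.08, were also past a log2 difference of 1, against 3.74%. Drd5 and Drd3 differed by -0.13 and -0.25 between the R6/1 groups. Unlike the 4 lower genes, Drd3 was nearer to WT-vehicle in treated R6/1 mice, at 0.76 above it, than in R6/1-vehicle mice, at 1.01. The paper names Drd3 among genes upregulated in R6/1 mice that the drug reduced, a trend read without a cutoff for statistical significance. Drd4 was at or under 0.1 FPKM in both R6/1 groups and was not counted in the comparison between them.

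In WT mice, WT-RGFP109 against WT-vehicle, Drd3 was the 1 receptor gene past the fold, where 3.19% of 16957 genes were higher and 4.92% lower. Its level on the common scale was 0.789 FPKM in WT-vehicle and 1.73 FPKM in WT-RGFP109, a log2 difference of 1.09, and 1.33% of all genes had a higher value. Drd1 differed by 0.08, Drd2 by -0.17, Drd4 by -0.18 and Drd5 by -0.21, all within the 5th to 95th percentile of all genes, -0.49 to 0.35.

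Drd3 was thus lowest in WT-vehicle, and the other 3 groups lay between 1.37 and 1.73 FPKM. The comparisons of these 3 groups with WT-vehicle share the WT-vehicle libraries, so they are not independent of each other. Being higher than WT-vehicle past the fold in all 3 applied to 142 of 16731 genes (0.849%). Drd3 was not among the genes past the fold in R6/1-RGFP109 against WT-vehicle when 1 FPKM was added, nor past a log2 difference of 1. The drug difference of Drd3 was -0.25 in R6/1 mice and 1.09 in WT mice, and the gap between them was -1.34, lower than in all but 0.944% of 16534 genes. With 1 FPKM added in place of 0.05, this gap was -0.76, and Drd3 differed from WT-vehicle by 0.56 in R6/1-vehicle and by 0.60 in WT-RGFP109. The same gap was -0.21 for Drd1, -0.08 for Drd2 and 0.08 for Drd5, inside the 5th to 95th percentile of all genes, -0.43 to 0.50. By construction, this gap equals the difference between the 2 genotype comparisons, so it adds nothing to them. Without values per mouse it could not be tested.

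**Figure D3:**
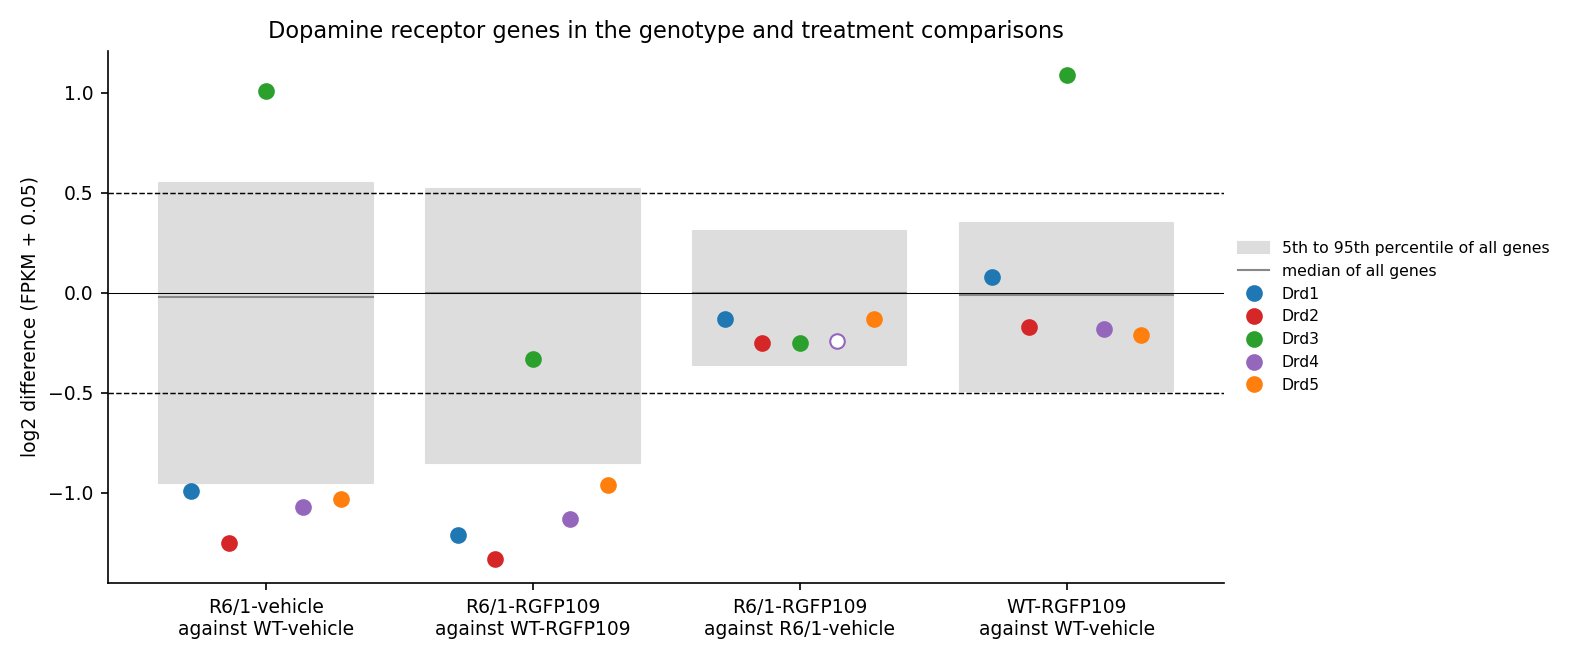
Log2 difference (FPKM + 0.05) of each receptor gene (points) in the genotype and drug comparisons, with the 5th to 95th percentile of all genes (gray boxes), their median (gray line) and the fold of 0.5 in either direction (dashed lines). The open circle is Drd4 where both groups were at or under 0.1 FPKM; Drd3 is above the boxes in R6/1-vehicle and WT-RGFP109, each against WT-vehicle, while the other 4 genes are below the boxes in both genotype comparisons.

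Markers of tissue outside the striatum were set beside Drd3. In WT-RGFP109 against WT-vehicle, the 3 olfactory bulb markers over 0.1 FPKM, Eomes, Doc2g and Cdhr1, were all higher past the fold, by 2.70, 0.90 and 0.80, and the summed FPKM of the 4 on the list was 7.09 (WT-vehicle), 4.13 (R6/1-vehicle), 13.7 (WT-RGFP109) and 4.83 (R6/1-RGFP109). The defining markers were low, with Tbx21 at 0.0417 FPKM or less and Eomes at 0.833 FPKM or less, and no marker was listed at 0. This sum was highest in WT-RGFP109, as Drd3 was, but it was lower in R6/1-vehicle than in WT-vehicle, where Drd3 was higher. The choroid plexus markers were lower in all 3 groups where Drd3 was higher, with a summed FPKM of 1486 (WT-vehicle), 633 (R6/1-vehicle), 321 (WT-RGFP109) and 40.8 (R6/1-RGFP109), and in the WT drug comparison 8 of 8 were lower past the fold, against 4.92% of all genes. Sums highest in WT-vehicle were not particular to this list. In the same group order they were 368, 206, 342 and 261 for neocortex, 32.7, 7.46, 24.8 and 22.9 for hypothalamus, and 4167, 2321, 3301 and 2609 for glia. The part of these tissues in the Drd3 values was not tested.

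The genes that make, carry and break down dopamine mostly stayed within the fold between genotypes, as did most genes. In the vehicle comparison 13.4% of all genes were lower and 5.84% higher past it. There 1 of 12 genes of this list over 0.1 FPKM passed it, and the median was 0.02. The 1 gene was Qdpr, which recycles the cofactor of tyrosine hydroxylase, with 254 FPKM in WT-vehicle and 169 FPKM in R6/1-vehicle, a log2 difference of -0.59. Th, tyrosine hydroxylase itself, was at 4.45, 4.36, 9.16 and 3.75 FPKM in WT-vehicle, R6/1-vehicle, WT-RGFP109 and R6/1-RGFP109. Like Drd3, Th was past the fold in WT-RGFP109 against WT-vehicle, by 1.03, as were the dopamine transporter Slc6a3, by 1.23, and Dbh, which turns dopamine into noradrenaline, by 0.51. These were 3 of 13 genes, against 3.19% of all genes higher. Slc6a3 and Dbh were scarce throughout, at 0.0874 and 0.148 FPKM in WT-vehicle and at 0.275 and 0.233 FPKM in WT-RGFP109. Of the genes whose higher value lay between 0.1 and 1 FPKM, 9.04% were higher past the fold in this drug comparison. In the RGFP109 genotype comparison Th, Slc6a3 and Dbh were lower in R6/1 mice, by -1.27, -1.03 and -0.68, and so was the retinal and dopamine aldehyde dehydrogenase Aldh1a1, by -0.68. These were 4 of 13 genes, against 11.7% of all genes lower and 22.4% of those between 0.1 and 1 FPKM, where Slc6a3 and Dbh lie. The aromatic amino acid decarboxylase Ddc, the vesicular transporter Slc18a2, the cofactor enzymes Gch1, Pts and Spr, and the breakdown enzymes Maoa and Maob were within the fold in all 4 comparisons.

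Th, Ddc, Slc18a2 and Slc6a3 are also markers of dopamine neurons, whose cell bodies lie in the midbrain. Of the 6 midbrain markers, the defining transcription factor genes Pitx3 and En1 were at or under 0.0546 FPKM in every group. The summed FPKM of the 6 was 12 (WT-vehicle), 12.2 (R6/1-vehicle), 16.5 (WT-RGFP109) and 12.3 (R6/1-RGFP109), with no gene listed at 0. The part of midbrain tissue in the Th and Slc6a3 values was not tested, and Th is also made by olfactory bulb cells and by a class of striatal interneuron.

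Downstream of the receptors, the G protein and cyclase list held 10 genes, and 2 were lower past the fold in each genotype comparison, a share of the list near that of all genes (13.4% in vehicle and 11.7% in RGFP109 mice, which also stand beside the list counts that follow). These were Adcy5, the main adenylyl cyclase of striatal projection neurons, at -1.18 in vehicle and -1.24 in RGFP109 mice, and Gng7, the gamma subunit paired with the olfactory-type G protein, at -0.74 and -0.70. Gnal, the alpha subunit through which D1 receptors act in the striatum, was at -0.10 and -0.32, and Gnao1 at -0.24 and -0.22. The median of the list was -0.04 in vehicle and 0.01 in RGFP109 mice. The 5 alpha subunit genes of the inhibitory class, Gnai1, Gnai2, Gnai3, Gnao1 and Gnaz, and the stimulatory Gnas were all within the fold.

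Of 16 genes for receptor partners and desensitization, 4 were lower past the fold in vehicle mice, with a list median of -0.25, and 4 in RGFP109 mice, with a median of -0.23. Rgs9, which speeds the turn-off of D2 receptor signals, was at -1.54 and -1.55, from 211 FPKM in WT-vehicle and 72.5 FPKM in R6/1-vehicle. Ppp1r9b, spinophilin, was at -1.08 and -0.90, and Dlg4, the scaffold PSD-95, at -0.64 and -0.53. Flna, filamin A, was past the fold in vehicle mice at -0.62 and within it in RGFP109 mice at -0.44. The arrestin and receptor kinase genes Arrb1, Arrb2, Adrbk1, Adrbk2, Grk4, Grk5 and Grk6 were within the fold in both, as were most genes.

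In the DARPP-32 pathway, the protein phosphatase switch that reads D1 and D2 receptor signals in projection neurons, 7 of 17 genes were lower past the fold in vehicle mice and 6 of 17 in RGFP109 mice, with medians of -0.25 and -0.20. Ppp1r1b, DARPP-32, had 1150 FPKM in WT-vehicle and 447 FPKM in R6/1-vehicle, and its log2 differences were -1.36 and -1.39. The phosphodiesterase genes Pde10a and Pde1b, whose products break down cyclic nucleotides, were at -1.53 and -1.10 in vehicle mice and at -1.68 and -1.17 in RGFP109 mice. Ppp3ca, the calcineurin subunit that removes phosphate from DARPP-32, was at -0.75 and -0.83. The protein kinase A genes Prkaca, Prkacb and Prkar2b were within the fold, between -0.06 and 0.33.

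Of 10 transcripts that respond to dopamine signals, 6 were lower past the fold in vehicle mice and 7 in RGFP109 mice, against 13.4% and 11.7% of all genes, with medians of -0.76 and -0.82. Most of the list is known to be induced by dopamine, whereas Penk, proenkephalin of D2-type neurons, is known to be held down by D2 receptor signals. Penk was at -2.01 and -2.17, Arc at -1.49 and -1.18, Nr4a1 at -1.04 and -0.92 and Junb at -1.03 and -0.57. The D1-type peptide genes Pdyn and Tac1 were within the fold in vehicle mice at -0.47 and -0.11. In RGFP109 mice they were at -0.85 and -0.43, and Pdyn was past the fold. In the drug comparisons no gene of the lists for G proteins, partners, the DARPP-32 pathway or dopamine-responsive transcripts passed the fold in either genotype. Few genes did so in all, 5.77% in R6/1 mice, and 3.19% (higher) and 4.92% (lower) in WT mice, so these counts do not set the lists apart.

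**Figure D4:**
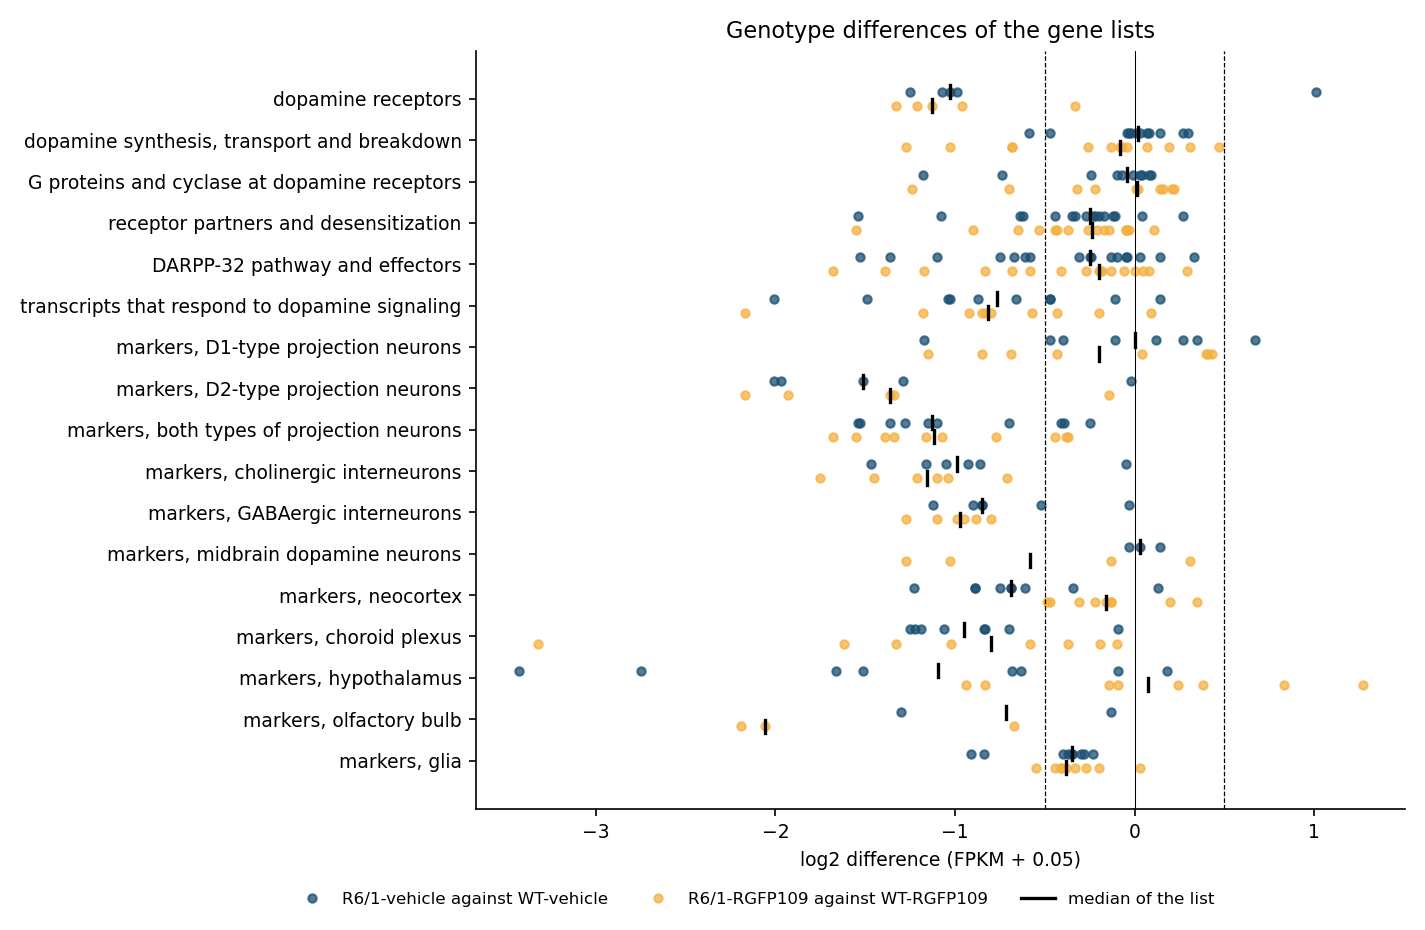
Log2 difference (FPKM + 0.05; x axis) of each gene over 0.1 FPKM on the receptor, pathway and marker lists (rows) in the vehicle (blue) and RGFP109 (orange) genotype comparisons, with the median of each list (black tick) and the fold of 0.5 (dashed lines). The medians of the receptors lie at -1.03 and -1.13, close to those of the markers of both types of projection neurons at -1.13 and -1.12. Other lists lie near as well, among them markers of cholinergic interneurons at -0.99 and -1.16, of GABAergic interneurons at -0.85 and -0.97 and of choroid plexus at -0.95 and -0.80. Transcripts that respond to dopamine signaling lie at -0.76 and -0.82. Hypothalamus markers lie near in vehicle mice only, at -1.10, against 0.07 in RGFP109 mice.

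The markers of the cells that carry these receptors were set beside them. Of 10 genes shared by both types of projection neurons, 7 were lower past the fold in each genotype comparison, against 13.4% and 11.7% of all genes, with summed FPKM of 2511 (WT-vehicle), 1104 (R6/1-vehicle), 2346 (WT-RGFP109) and 1002 (R6/1-RGFP109). Of the 5 D2-type markers 4 were lower in each, with medians of -1.51 and -1.36, among them Adora2a at -1.97 and -1.93. The 8 D1-type markers as a set differed from Drd1, although Chrm4, at -1.17 and -1.15, was close to it. Their median was 0.01 in vehicle and -0.20 in RGFP109 mice. Past the fold, 1 was lower and 1 higher in vehicle mice, and 3 were lower and 0 higher in RGFP109 mice. Their summed FPKM of 362, 311, 408 and 290 varied less, but Tac1 made up most of it, at 214, 199, 246 and 182 FPKM. Cholinergic interneuron markers, from cells that hold Drd2 and Drd5, were lower in 5 of 6 cases in vehicle and 6 of 6 in RGFP109 mice, with Chat at -1.47 and -1.75. In each of these lists no gene was listed at 0 in any group, and how far cell number entered the receptor values was not tested.

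Neocortex markers moved with the genotype difference in vehicle mice as well, with 7 of 9 lower past the fold and a median of -0.69, and a summed FPKM of 368 (WT-vehicle), 206 (R6/1-vehicle), 342 (WT-RGFP109) and 261 (R6/1-RGFP109). In RGFP109 mice 0 of 9 passed the fold, with a median of -0.16, while Drd1 and Drd2 were at -1.21 and -1.33 there. Glial markers were lower past the fold in 2 of 9 cases in vehicle mice, with Mbp at -0.91, and in 1 of 9 in RGFP109 mice. GABAergic interneuron markers were lower in 5 of 6 and 6 of 6, and hypothalamus markers in 6 of 8 and 2 of 8, the latter beside 2 that were higher. Choroid plexus markers were lower in both genotype comparisons, in 7 of 8 cases with a median of -0.95 in vehicle mice and in 5 of 8 with a median of -0.80 in RGFP109 mice. Olfactory bulb markers over 0.1 FPKM were lower in 1 of 2 and 3 of 3. The part of each of these in the receptor values was not tested.

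The nearest profiles over the 4 groups were sought among 13717 genes with a mean of at least 1 FPKM, by the Euclidean distance of log2 values centred on each gene's own mean. With 4 points per gene, such likeness is a description of these groups alone. Nearest to Drd2 was Rasd2, which encodes the striatal GTPase Rhes, at a distance of 0.020, followed by Gm11744, Pradc1, the delta opioid receptor gene Oprd1 and Ido1, at 0.038 to 0.102. Near to Drd1 were Rec8 at 0.031, the substance P receptor gene Tacr1 at 0.045, Arpp21 and Prss53. For Drd5 these were Plxdc1 at 0.040, 4933417D19Rik, Dnah1, Serpinb1b and Fam78a, and for Drd4 Egfl8 at 0.072, Dhrs3, Myo3b, Tesc and Rem2. Genes as near as these were not found for Drd3. Its nearest, the locus listed as H2-T22,H2-T9, was at 0.236, and the neurotensin gene Nts, at 0.279, had 7.18 FPKM in WT-vehicle against 11.8, 14.5 and 12.8 FPKM in R6/1-vehicle, WT-RGFP109 and R6/1-RGFP109. Snord32a, Gm10451 and Gpr149 completed the 5.

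**Figure D5:**
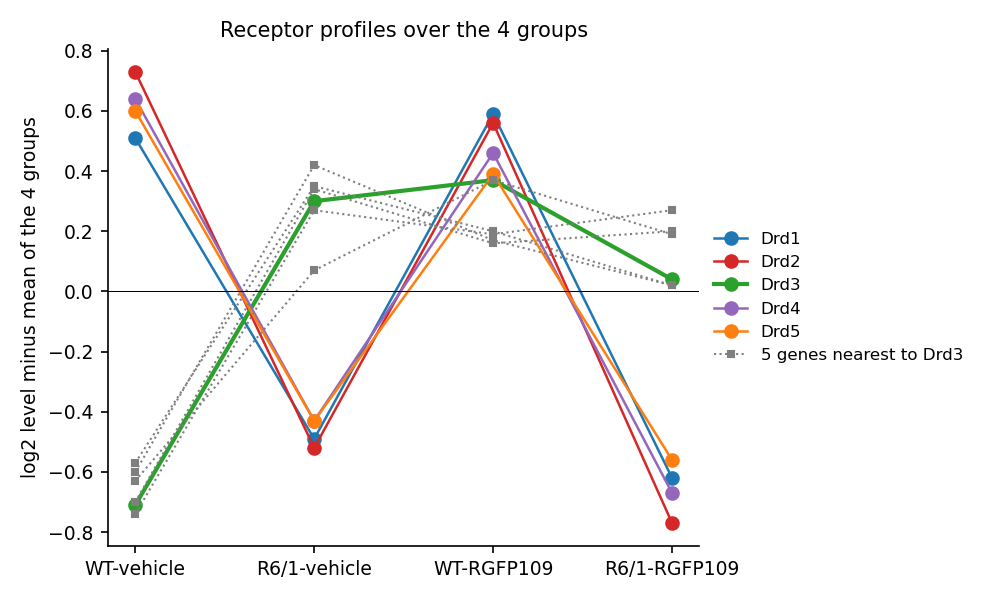
Log2 level minus the gene's mean over the 4 groups (y axis) for the 5 receptor genes (colored) and the 5 genes nearest to Drd3 (gray dotted), with groups on the x axis and lines only to guide the eye. Drd1, Drd2, Drd4 and Drd5 go down together in both R6/1 groups, and Drd3 lies at -0.71 in WT-vehicle and at 0.04 to 0.37 elsewhere.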

How the data were processed

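Striatal libraries of 24 mice, whose groups came from the submitters' labels, were sequenced as single-end reads in pools that each held all 4 groups. Per the submitters' processing notes, reads were aligned with STAR 2.5.0b on mm10 and quantified with Cufflinks 2.2.1. Per the paper, the reference was RefSeq. The authors deposited 6 Cuffdiff tables, 1 per pair of groups, with 1 pooled FPKM value per group and gene. The tables also hold the authors' log2 fold changes, test statistics, p-values and q-values, which were not used. Values per mouse were not used here, so the depth is unknown, and no test, interval or value within a sequencing pool is given.

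The tables differ by a common factor (0.965 to 1.03), the median over genes of at least 1 FPKM, which was removed for levels across tables. Log2 differences were taken within a table after adding 0.05 FPKM, for genes over 0.1 FPKM in at least 1 of both groups. Genes were called past an absolute value of 0.5. Named were all members, the 4 genes of each list with the largest absolute vehicle genotype difference over the filter, all genes of dopamine synthesis, transport and breakdown, and the 5 nearest profiles of each member. The results of 3 genes under this rule are not reported here. Further genes of the lists were named after their values were seen. The members and lists were chosen with earlier results of these data known. Adrbk1 and Adrbk2 are the tables' symbols for receptor kinases. Start coordinates had 1 added. Exons were read from GENCODE on GRCm38. Code was tested on simulated data. Alternatives covered the pseudocount, filter, fold, centring and route through other groups. Calculations ran in pandas 2.3.3 and numpy 2.4.6 under Python 3.11.15, and plots in matplotlib 3.10.9.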

Additional observations from a re-analysis of the deposited data

How the results depend on the processing

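Of 129 alternative values of single receptor differences, 125 kept their direction and their side of the fold, and 0 were reversed. The 19 values without a filter and the 15 with a minimum of 1 FPKM could not change, since a filter leaves a difference as it is. The 19 by way of other groups repeat the direct difference nearly by construction. These values therefore add no support. With a pseudocount of 1 FPKM, Drd4 came to -0.18 in the vehicle and -0.17 in the RGFP109 genotype comparison, inside the fold, as its FPKM are far below the pseudocount. At an absolute log2 difference over 1, Drd1 in vehicle mice (-0.99) and Drd5 in RGFP109 mice (-0.96) no longer passed. The pseudocount of 1 also brought Drd5 to -0.58 and -0.51 in these comparisons, still past the fold, and the gap between the drug differences of Drd3 from -1.34 to -0.76. Under a minimum of 1 FPKM Drd4 was not counted. Receptor genes past the fold numbered 5 in R6/1-RGFP109 against WT-vehicle and 3 with a pseudocount of 1, where Drd3 and Drd4 dropped out, and 4 in R6/1-vehicle against WT-RGFP109 and 2 with either that pseudocount or the larger fold. Among all genes the count past the fold depended on each of these settings. It was 3266 for R6/1-vehicle against WT-vehicle and became 1572 with a pseudocount of 1, 2094 with at least 1 FPKM and 1050 at the larger fold. In the same order it was 2892, 1302, 1816 and 899 for R6/1-RGFP109 against WT-RGFP109, 3259, 1547, 2074 and 1042 for R6/1-RGFP109 against WT-vehicle, and 2942, 1342, 1835 and 907 for R6/1-vehicle against WT-RGFP109. The drug comparisons gave 971, 371, 445 and 388 in R6/1 and 1376, 441, 581 and 550 in WT mice, and 1483 and 2076 without a filter. Each larger fold or minimum leaves fewer genes by construction. No paired analysis was possible because the tables hold 1 pooled value per group, and for the same reason no replicate could be left out. The spread between mice and the depth behind the low values of Drd3, Drd4 and Drd5 are unknown.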

Other observations

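Genes that mark D1-type projection neurons differed among themselves between genotypes. Chrm4, the muscarinic M4 receptor gene, had 40.9 FPKM in WT-vehicle and 18.1 FPKM in R6/1-vehicle, a log2 difference of -1.17 that was close to that of Drd1, and -1.15 in RGFP109 mice. Isl1, a transcription factor gene of developing direct pathway neurons, had 4.52 and 7.21 FPKM in the vehicle groups, a log2 difference of 0.67, and 0.41 in RGFP109 mice. Ebf1, also a transcription factor gene of this lineage, and Eya1 were at 0.35 and 0.27 in vehicle mice and at 0.40 and 0.43 in RGFP109 mice, within the fold. Pdyn went the other way, at -0.47 in vehicle mice and, past the fold, at -0.85 in RGFP109 mice. Sp9, a transcription factor gene of D2-type neurons, was at -0.02 and -0.14, whereas the receptor genes Gpr6 and Gpr52 of these neurons were at -1.51 and -1.29 in vehicle mice and at -1.36 and -1.34 in RGFP109 mice. Among cholinergic markers Lhx8, a transcription factor gene, was at -0.05 in vehicle and -0.71 in RGFP109 mice.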
